A study of Arabidopsis thaliana with 6 samples.

Results

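The genes described here are 10 components of the light-signalling pathway of Arabidopsis thaliana, followed in dissected root meristems. They are the phytochrome genes PHYA (AT1G09570) and PHYB (AT2G18790), the cryptochrome genes CRY1 (AT4G08920) and CRY2 (AT1G04400), the PHYTOCHROME INTERACTING FACTOR genes PIF1 (AT2G20180), PIF3 (AT1G09530), PIF4 (AT2G43010) and PIF5 (AT3G59060), and the ubiquitin ligase genes COP1 (AT2G32950) and SPA1 (AT2G46340). They were selected by locus identifier, with earlier results of these data known, from the 32678 genes of the deposited count table. All 10 had a row. RNA sequencing was done on 3 libraries labelled as wild type, of the accession Col-0, and 3 labelled as papl1-1 papl2, the double mutant also called cog1-6 cdf4. They are called Col-0-labelled and mutant-labelled below. In both groups the seedlings were 5 days old and had grown in long days at 23 degrees Celsius on 0.5-strength Murashige and Skoog agar with 1% sucrose. Meristems were cut out by hand, and per the labels' protocols the 3 best RNA samples of each genotype went on to sequencing. The labels do not state how many plants a sample held, whether replicates came from separate plates or how the mutations alter the genes, so p-values measure only the spread between these samples, which may be technical.

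Phytochromes absorb red and far-red light and cryptochromes absorb blue light. Activated phytochromes enter the nucleus and bind PIF proteins, basic helix-loop-helix transcription factors that promote growth in darkness and shade, which leads to the degradation of most of them. Both kinds of receptor also inhibit the COP1-SPA ubiquitin ligase, which in darkness marks positive regulators such as the transcription factor HY5 for destruction. Roots express photoreceptors themselves and also receive light signals from the shoot. COG1, mutated here together with CDF4, encodes a transcription factor of the Dof zinc finger family that is known as a negative regulator of phytochrome signalling in seedlings and has been reported to bind the promoters of PIF4 and PIF5 and to promote their expression.

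Because Dof proteins recognise the core AAAG, the 250 bases before the annotated start are shown for PIF4 and PIF5, the reported COG1 targets, and for CRY2, which had the smallest p-value among the 10 genes. The sequences are from the RefSeq assembly TAIR10.1, are written 5′ to 3′ on the strand of the gene, and carry each AAAG or its reverse complement CTTT in capitals. The PIF4 stretch is chr2:17885851-17886100 on the plus strand, the PIF5 stretch chr3:21830838-21831087 on the minus strand and the CRY2 stretch chr1:1188697-1188946 on the minus strand.
PIF4: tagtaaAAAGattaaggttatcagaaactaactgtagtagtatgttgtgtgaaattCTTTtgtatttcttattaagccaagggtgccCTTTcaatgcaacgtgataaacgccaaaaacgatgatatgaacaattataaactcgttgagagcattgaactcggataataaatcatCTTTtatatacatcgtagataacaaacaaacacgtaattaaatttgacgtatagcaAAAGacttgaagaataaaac
PIF5: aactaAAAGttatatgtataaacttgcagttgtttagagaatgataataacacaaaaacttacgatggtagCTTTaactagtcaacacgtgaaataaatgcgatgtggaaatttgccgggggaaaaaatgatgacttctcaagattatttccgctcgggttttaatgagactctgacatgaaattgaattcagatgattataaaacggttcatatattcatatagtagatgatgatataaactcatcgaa
CRY2: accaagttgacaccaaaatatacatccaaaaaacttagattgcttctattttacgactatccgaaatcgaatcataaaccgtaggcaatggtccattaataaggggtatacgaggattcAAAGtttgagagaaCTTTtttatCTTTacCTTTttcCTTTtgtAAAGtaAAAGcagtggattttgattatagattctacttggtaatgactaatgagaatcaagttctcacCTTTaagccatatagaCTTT
The core occurred 5 times before PIF4, 2 times before PIF5 and 9 times before CRY2, counting both strands and overlapping matches. Of 26711 protein-coding genes, 98.0% had at least 1 match in the same window, with a median of 4 matches. As many matches as CRY2 or more were found for 3.22% of these genes, as many as PIF4 for 39.5% and as many as PIF5 for 90.5%. Among the genes of the 10 not shown, matches ran from 1 before PIF1 to 7 before PHYA and SPA1. As many as 7 or more were found for 13.6% of protein-coding genes. Whether the number of matches goes with the fold change was not tested. The G-box CACGTG, a palindrome bound by PIF proteins and HY5, was present once before PIF5 and was absent from the PIF4 and CRY2 stretches, while 6.58% of all promoters held it. Of the genes not shown, PHYB held it 2 times. These matches describe the letters and not binding.

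The libraries held 17849704 to 20914576 counts. The mutated loci gave a check of the labels that went against a simple loss of transcript. COG1 (AT1G29160) had 240, 220 and 231 counts in Col-0-labelled replicates 1 to 3 and 455, 365 and 295 in the mutant-labelled ones, which is 0.76 (SE 0.12) higher on the log2 scale at an adjusted p of 0.0137 by edgeR's quasi-likelihood F test. This call was lost in 3 of 6 fits that left out a library, with an adjusted p of up to 0.0755. CDF4 (AT2G34140) had 69 to 92 and 111 to 115 counts (log2 fold change 0.57, SE 0.15, adjusted p 0.0952 in the same test). Directions therefore rest on the labels, and a gene's count does not tell an intact from a disrupted transcript. Of the meristem markers, PLT1, which encodes a transcription factor of the root stem cell niche, was at 35.2 to 41.7 CPM (counts scaled to library size, with factors from the trimmed mean of M-values, TMM) across all 6 libraries, and WOX5, of the quiescent centre, at 0.105 to 0.95 CPM on 2 to 19 counts, with adjusted p of 0.384 and 0.410 between the labels. The summed level of 6 meristem markers was 218 to 224 CPM in the Col-0-labelled libraries and 212 to 228 CPM in the others. The summed level of 6 root hair markers was 5.05 to 6.00 CPM in the Col-0-labelled libraries, and 16.1, 11.8 and 0.838 CPM in mutant-labelled replicates 1 to 3. COBL9, a gene of this set, gave the largest part of each sum except that of mutant-labelled replicate 3. COBL9 was at 4.32, 2.38 and 4.43 CPM and at 7.89, 4.66 and 0.168 CPM. Its log2 fold change was 0.21 (SE 0.72, adjusted p 0.773 by edgeR's quasi-likelihood F test). LRX1, also of this set, was at 0.391 CPM in mutant-labelled replicate 3, within its Col-0-labelled range of 0.143 to 0.843 CPM. RSL4, a transcription factor gene of root hair growth, was at 0.429 to 0.738 CPM in the Col-0-labelled libraries and at 4.16, 3.22 and 0.279 CPM in the mutant-labelled ones (log2 fold change 2.13, SE 0.73, adjusted p 0.194). PRP3, a root hair wall protein gene, had 0, 12 and 1 counts in the Col-0-labelled and 25, 11 and 0 counts in the mutant-labelled libraries (adjusted p 0.584). EXPA7 and EXPA18, root hair expansin genes, were at 0 counts in replicate 3 of both labels. The first principal component, with 41.6% of the variance, separated the labels, at -30.6 to -14.5 against 14.1 to 29.5. Mutant-labelled replicate 3 stood apart from replicates 1 and 2 of its label on the second, at -34.2 against 28.0 and 17.7. That component held 30.7%. The summed level of 3 root cap markers was 69.1 to 74.0 CPM and 54.8 to 70.5 CPM in the 2 groups. Its genes SMB and BRN2, which encode NAC transcription factors, had log2 fold changes of -0.26 and -0.31 (adjusted p 0.232 and 0.287).

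None of the 10 genes changed between the labels at an adjusted p under 0.05. By edgeR's quasi-likelihood F test on all 6 libraries, 8 of the 10 had enough counts to be tested and 0 passed, where 2.76% of the 17720 tested genes passed. At an unadjusted p under 0.05, 2 of the 8 passed, CRY2 and PHYA, against 15.9% of all tested genes. For the same 2 genes all values of one label lay above all of the other, against 21.5% of all tested genes. The DESeq2 Wald test called 1 of the 8, CRY2, and 4.2% of all tested genes. The 8 log2 fold changes ran from -0.42 to 0.44 with a median of 0.08, beside a median of 0.00 over all tested genes, and 5 were above and 3 below 0.

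**Figure D1:**
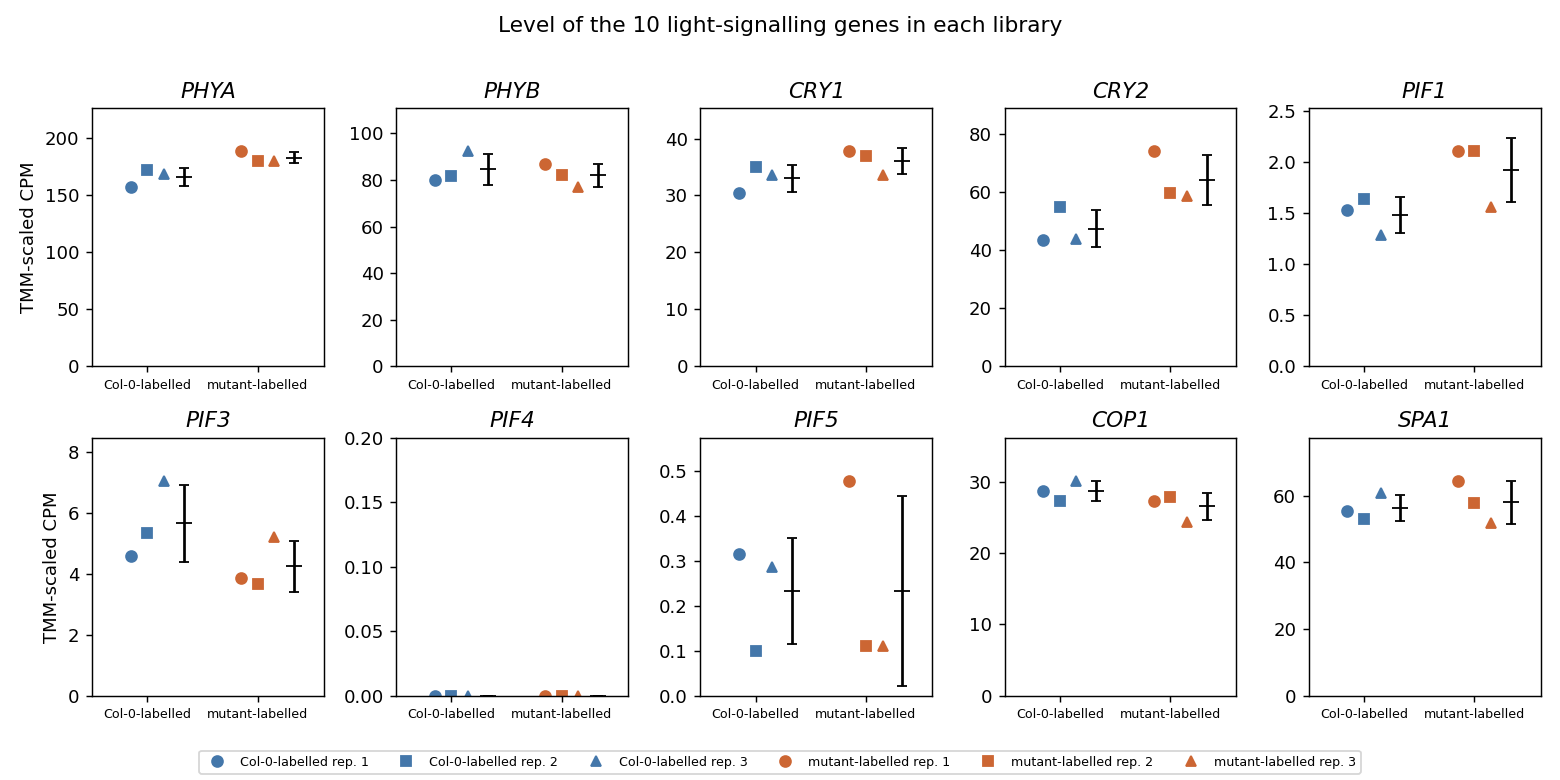
Level of each of the 10 genes in TMM-scaled CPM (vertical axes, each from 0) in the 3 Col-0-labelled (blue) and the 3 mutant-labelled (orange) libraries. Points are single libraries and black bars are the mean ± SD (n = 3). The groups are separate for PHYA and CRY2 and overlap for the other genes, and PIF4 is at 0 throughout.

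CRY2, a blue-light receptor that also acts in flowering time, had the smallest p-value of the 10 genes. Its level was 43.5, 54.8 and 43.7 CPM in Col-0-labelled replicates 1 to 3 and 73.9, 59.7 and 58.4 CPM in the mutant-labelled ones. All 3 values of the second group lay above those of the first, with mutant-labelled replicate 1 the highest. The log2 fold change was 0.44 (SE 0.12, 95% interval 0.17 to 0.70), or 1.35-fold, and the adjusted p was 0.0945 by edgeR's quasi-likelihood F test, which did not pass. With the DESeq2 Wald test the adjusted p was 0.00839, and without mutant-labelled replicate 3, by edgeR's quasi-likelihood F test, it was 0.0182 at a log2 fold change of 0.50, in a fit that called 6.48% of all tested genes. Across all 12 alternatives the adjusted p reached 0.334. Mutant-labelled replicate 3, the library with the lowest summed level of root hair markers, had 58.4 CPM of CRY2, against 54.8 CPM in the highest Col-0-labelled library. The part of root hair cells in the CRY2 values of any library was not tested. In such bulk samples a change in the number of cells of a type and a change in RNA per cell cannot be told apart.

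CRY1, the other main cryptochrome and the chief blue-light receptor of seedling greening, was at 30.5, 35.1 and 33.6 CPM in the Col-0-labelled libraries and at 37.8, 37.0 and 33.5 CPM in the others. The groups overlapped, and the log2 fold change was 0.13 (SE 0.08, 95% interval -0.05 to 0.30, adjusted p 0.485 by edgeR's quasi-likelihood F test). The ratio of CRY2 to CRY1 counts, which does not depend on scaling between libraries, was 1.43, 1.56 and 1.3 in the Col-0-labelled libraries and 1.96, 1.61 and 1.74 in the mutant-labelled ones.

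PHYA, the receptor for far-red and very weak light, was at 157, 172 and 169 CPM in the Col-0-labelled libraries and at 188, 180 and 180 CPM in the mutant-labelled ones. The groups did not overlap, but the lowest value of the second group was close to the highest of the first. The log2 fold change was 0.14 (SE 0.06, 95% interval 0.01 to 0.26), or 1.1-fold, with an adjusted p of 0.264 by edgeR's quasi-likelihood F test. PHYB, the main red-light receptor of light-grown plants, was at 79.9, 81.8 and 92.3 CPM and at 87.1, 81.9 and 77.0 CPM. These ranges overlapped, and the log2 fold change was -0.05 (SE 0.07, 95% interval -0.21 to 0.12, adjusted p 0.823 by edgeR's quasi-likelihood F test). The sign of the PHYB value turned, to 0.02, without Col-0-labelled replicate 3. The interval of PHYB spans fold changes of 0.863 to 1.09, so a change of the size found for the COG1 locus lies outside it. The ratio of PHYA to PHYB counts was 1.97, 2.11 and 1.83 in the Col-0-labelled libraries and 2.16, 2.20 and 2.34 in the others.

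The PIF genes stood far lower than the receptors. PIF4 had 0 counts in all 6 libraries, and 3 counts, taken as the detection floor, correspond to 0.143 to 0.168 CPM in a library. That floor covers counting error only. The annotation places no other gene over PIF4, and no stretch of 50 bases of its exons occurs a second time in the nuclear genome. Whether PIF4 reads were left out in the authors' counting was not tested, and no difference between the labels can be given. PIF5 had 6, 2 and 6 counts in the Col-0-labelled libraries and 10, 2 and 2 in the mutant-labelled ones, or 0.0992 to 0.316 and 0.111 to 0.478 CPM. It did not pass the filter on low counts. With no filter its log2 fold change was 0.05, with a 95% interval from -1.61 to 1.70 and an adjusted p of 0.992 by edgeR's quasi-likelihood F test, an interval that holds changes of more than 2-fold in both directions. For both reported COG1 targets, the counts in this tissue were therefore too few to compare the labels.

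PIF3, the founding member of the family, was at 4.58, 5.36 and 7.05 CPM in the Col-0-labelled libraries and at 3.88, 3.66 and 5.20 CPM in the mutant-labelled ones. The highest value came from replicate 3 in each group, and the groups overlapped through that library of the second. The log2 fold change was -0.42 (SE 0.21, 95% interval -0.89 to 0.05, adjusted p 0.372 by edgeR's quasi-likelihood F test). PIF1, a repressor of seed germination in the dark, was at 1.53, 1.64 and 1.29 CPM and at 2.11, 2.11 and 1.56 CPM, on 27 to 44 counts per library. Again mutant-labelled replicate 3 fell within the range of the other label. The log2 fold change of PIF1 was 0.38 (SE 0.24, 95% interval -0.17 to 0.93, adjusted p 0.505 by edgeR's quasi-likelihood F test). PIF1 overlaps AT2G20170 on the opposite strand over 334 bases. Of the 50-base stretches of PIF1 exons, 3.61% occur more than once in the nuclear genome. Both make its value less certain.

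COP1, the catalytic partner of the ubiquitin ligase, was at 28.7, 27.3 and 30.1 CPM in the Col-0-labelled libraries and at 27.3, 27.9 and 24.4 CPM in the mutant-labelled ones. SPA1, a COP1 cofactor first found as a suppressor of phytochrome A signalling, was at 55.3, 52.9 and 60.6 CPM and at 64.4, 57.7 and 51.7 CPM. In both genes the groups overlapped, and mutant-labelled replicate 3 was the lowest of the 6 libraries. The log2 fold change was -0.11 (SE 0.08, 95% interval -0.29 to 0.06, adjusted p 0.537) for COP1 and 0.04 (SE 0.09, 95% interval -0.16 to 0.24, adjusted p 0.866) for SPA1 by edgeR's quasi-likelihood F test. The SPA1 value was below 0 in 2 of the fits that left out a library. The ratio of SPA1 to COP1 counts was 1.93, 1.94 and 2.01 in the Col-0-labelled libraries and 2.36, 2.07 and 2.12 in the others.

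Count ratios within a library were compared for 4 pairs of related genes, chosen with the counts known. For PHYA to PHYB, CRY2 to CRY1 and SPA1 to COP1 the groups did not overlap. Each had a p of 0.1 in a 2-sided exact permutation test, or 0.133 after Benjamini-Hochberg adjustment over the 4 pairs. A p of 0.1 is the smallest that 3 against 3 libraries allow. Any pair without overlap gets it, so it adds nothing to the separation. Of all tested single genes 21.5% did not overlap, PHYA and CRY2 among them, and no such share was computed for gene pairs. The ratio of PIF3 to PIF1 was 3.92 ± 1.36 (SD, n = 3) and 2.30 ± 0.886 (SD, n = 3), with an exact permutation p of 0.3. None can pass 0.05 in this design.

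**Figure D2:**
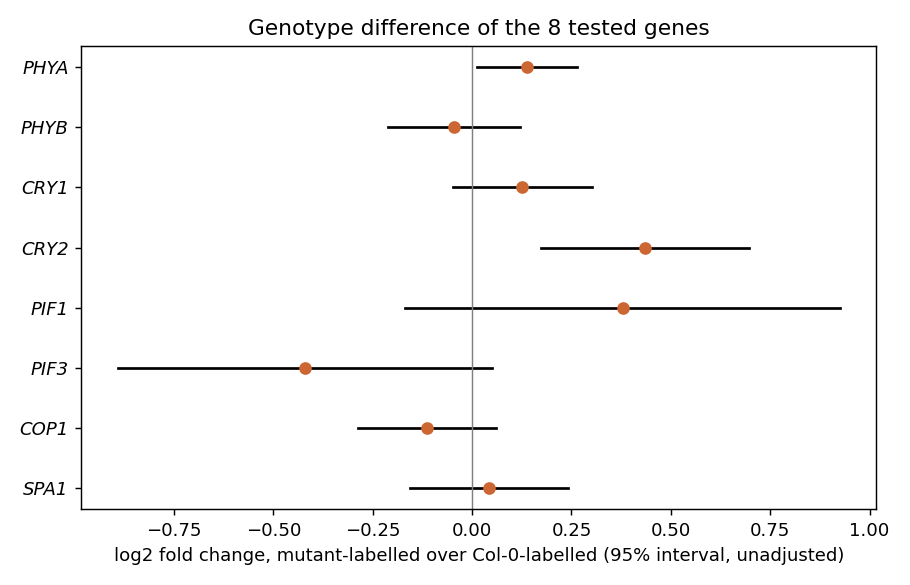
Log2 fold change of the 8 tested genes, mutant-labelled over Col-0-labelled libraries (horizontal axis). Points are the edgeR estimates and lines their 95% intervals, not adjusted for the number of genes. The intervals of CRY2 and PHYA lie above 0, those of the other 6 genes include 0, and none of the 8 passed after adjustment.

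Levels were then put in order per length, as TMM-scaled CPM per kilobase of annotated exons over all 6 libraries. PHYA was the highest of the 10 at 30.7 to 36.9, above CRY2 at 15.9 to 27.1 and PHYB at 17.0 to 20.4. CRY2 and PHYB did not separate. In the Col-0-labelled libraries the mean of CRY2, at 17.3 ± 2.38 (SD, n = 3), was below that of PHYB, at 18.7 ± 1.47 (SD, n = 3). In the mutant-labelled ones it was above, at 23.4 ± 3.15 against 18.1 ± 1.12 (SD, n = 3 each). SPA1 followed at 12.5 to 15.6, next to CRY1 at 10.1 to 12.5 and COP1 at 9.83 to 12.1. CRY1 and COP1 overlapped, and the lowest SPA1 value was almost equal to the highest of CRY1. PIF3, at 1.32 to 2.55, lay below COP1 with a ratio of means of 6.21, and PIF1 was at 0.549 to 0.899. PIF5, at 0.0387 to 0.187, was 7.97 times lower on average than PIF1, and PIF4 was last at 0. All 10 genes kept their place in this order when coding length was used in place of exon length.

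**Figure D3:**
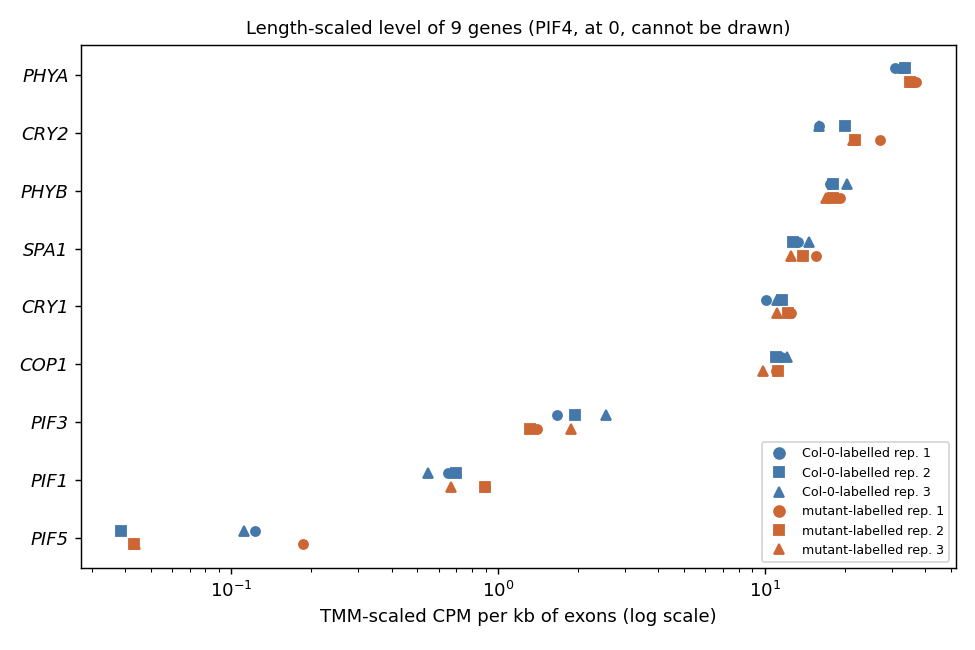
Level per length of 9 of the 10 genes, in TMM-scaled CPM per kilobase of exons (horizontal log axis), with Col-0-labelled libraries in blue and mutant-labelled ones in orange. Photoreceptor, COP1 and SPA1 levels lie between 9.83 and 36.9, and the PIF genes at or below 2.55.

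The relatives of the 10 genes extended this order. Among the phytochrome genes PHYA and PHYB were followed by PHYC at 9.99 to 10.7, PHYD at 6.36 to 7.34 and PHYE at 5.01 to 6.01 CPM per kilobase, with no overlap between any of the 5 in this order. CRY3, a cryptochrome of the organelles, was at 18.9 to 41.5 CPM per kilobase, a range that overlaps those of CRY2 and PHYB and takes in that of PHYA. Its mean was 32.5 ± 9.47 (SD, n = 3) in the Col-0-labelled libraries, beside 32.5 ± 1.56 (SD, n = 3) for PHYA. SPA2, SPA3 and SPA4, relatives of SPA1, were lower than SPA1, at 8.46 to 9.99, 2.59 to 4.53 and 0.350 to 0.820 CPM per kilobase. PIF6 was at 0.642 to 1.15, and PIF7 and PIF8 reached at most 0.114 and 0.0838 CPM per kilobase. The annotated span of PIF6 lies wholly under other genes on the opposite strand, so its value is uncertain where strand was not used in counting.

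Of 85 further genes of the pathway, listed by role, 69 were tested and 0 passed by edgeR's quasi-likelihood F test, against 2.76% of all tested genes. DESeq2 also called 0 of them, against its share of 4.2% over all genes. At an unadjusted p under 0.05, 14 of the 69 passed, against 15.9% of all tested genes, and the median log2 fold change was -0.03. For 16 of the 69 the groups did not overlap, against 21.5% of all tested genes. Of the other photoreceptors, all 10 were tested, with a median log2 fold change of 0.06. CRY3 was at 64.2, 43.4 and 79.6 CPM in the Col-0-labelled libraries and at 40.2, 45.3 and 36.2 CPM in the others, which overlapped. Its log2 fold change was -0.62 (SE 0.19, adjusted p 0.140 by edgeR's quasi-likelihood F test). Without Col-0-labelled replicate 2, the lowest of its group, the log2 fold change was -0.83 with an adjusted p of 0.0196 in the same test, in a fit that called 3 of the 69 genes and 1.54% of all tested genes. PHOT2, a blue-light receptor for phototropism and chloroplast movement, was at 6.24 to 6.99 and 4.41 to 5.50 CPM (log2 fold change -0.44, SE 0.14, adjusted p 0.167). A gene on the opposite strand covers 29.7% of PHOT2, which makes its value uncertain. FKF1, a blue-light receptor of the flowering pathway, was singled out after its values were seen. It had 10, 36 and 11 counts in the Col-0-labelled libraries and 45, 31 and 39 in the others. Its log2 fold change was 1.09 (SE 0.44, adjusted p 0.273 by edgeR's quasi-likelihood F test). Without Col-0-labelled replicate 2, the highest of its group and within the range of the others, it was 1.93 (adjusted p 0.0386, same test).

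Of 16 genes for the phytochrome chromophore and for phytochrome cofactors, 12 were tested, with a median log2 fold change of 0.13. Of the 12, 9 were above 0, against 9009 of all 17720 tested genes. HY1, the heme oxygenase that starts chromophore synthesis, was at 11.5, 12.5 and 10.9 CPM in the Col-0-labelled libraries and at 15.6, 14.2 and 17.5 CPM in the mutant-labelled ones. The groups did not overlap, as for 4 of the 12, against 21.5% of all tested genes. The HY1 log2 fold change of 0.44 (SE 0.11) had an adjusted p of 0.0693 by edgeR's quasi-likelihood F test, the smallest of the 69 genes. Across the alternatives that p was 0.0601 to 0.265. FHL, which carries phytochrome A into the nucleus with its relative FHY1, was at 2.06 to 2.18 and 3.01 to 4.49 CPM on 39 to 81 counts (log2 fold change 0.72, SE 0.22, adjusted p 0.15). The cryptochrome inhibitors BIC1 and BIC2 had log2 fold changes of -0.06 and -0.19 (adjusted p 0.922 and 0.803, edgeR's quasi-likelihood F test), and both signs turned in 1 alternative. CIB1, a partner of CRY2, had 0 counts in all libraries. Its annotated span lies wholly within another gene on the same strand, so that its reads may not have been assigned.

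Of 9 other PIF and related genes, 7 were tested, with a median log2 fold change of -0.06. PAR2, an inhibitor of shade growth, was at 17.95 to 21.1 CPM in the Col-0-labelled libraries and at 13.2 to 16.8 CPM in the others (log2 fold change -0.34, SE 0.11, adjusted p 0.166 by edgeR's quasi-likelihood F test). PIF6 had a log2 fold change of 0.31 (SE 0.25, adjusted p 0.620). All 18 genes of the other SPA, COP, DET and COP9 signalosome proteins were tested, and their log2 fold changes lay between -0.28 and 0.30 with a median of -0.06. CSN3, a signalosome subunit, was at 89.6 to 91.3 and 78.4 to 82.3 CPM (log2 fold change -0.16, SE 0.05, adjusted p 0.173). DDB1A, an adaptor of the CUL4 ligases, was at 102 to 111 and 116 to 120 CPM (log2 fold change 0.14, SE 0.05, adjusted p 0.253). For both, the groups were separate, as in 4 of the 18, but the differences were small. Over all tested genes the groups were separate for 21.5%.

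Downstream of the ligase, 7 of 11 genes for HY5, its relative HYH, LAF1 and B-box (BBX) proteins were tested, with a median log2 fold change of 0.21. HY5, the central activator of light responses, was not among the genes with the smallest p, at a log2 fold change of -0.10 (adjusted p 0.818 by edgeR's quasi-likelihood F test) that turned sign in 1 alternative. BBX28, which represses HY5 activity, was at 8.38 to 8.81 and 9.57 to 13.0 CPM (log2 fold change 0.35, SE 0.13, adjusted p 0.230), and BBX22, a HY5 partner, at 22.9 to 25.3 and 25.4 to 29.4 CPM (log2 fold change 0.21, SE 0.08, adjusted p 0.234). Of 10 PIF-induced genes, 8 were tested, with 4 log2 fold changes above and 4 below 0 and a median of 0.01. YUC9, an auxin synthesis gene, was at 5.75 to 6.11 and 3.78 to 5.20 CPM (log2 fold change -0.39, SE 0.16, adjusted p 0.264). ATHB2, a homeobox gene of the shade response, was at 27.1 to 28.6 and 26.9 to 35.5 CPM (log2 fold change 0.22, SE 0.10, adjusted p 0.343). Without mutant-labelled replicate 3, 3 of the 69 genes passed by edgeR's quasi-likelihood F test, where 6.48% of all tested genes passed. They were BBX20 at a log2 fold change of 1.05 (adjusted p 0.00143), XTR7, a cell wall enzyme gene, at 0.98 (adjusted p 0.0154) and BBX24 at 0.36 (adjusted p 0.00658). With all libraries their log2 fold changes were 0.71, 0.64 and 0.24, with adjusted p of 0.338, 0.448 and 0.315. These 3 genes were named after their values were seen. A gene on the opposite strand covers 27.8% of XTR7 and another 20.9% of BBX24, which makes their values uncertain.

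The genes induced by HY5 and light had the lowest median, -0.65 over 7 tested genes of 10. Of the 7, 6 were below 0, against 8711 of all 17720 tested genes. In 0 of the 7 were the groups separate, against 21.5% of all tested genes. FLS1, of flavonol synthesis, was at 123, 54.9 and 147 CPM in the Col-0-labelled libraries and at 64.2, 68.4 and 17.9 CPM in the mutant-labelled ones. The lowest library of the first group lay within the second, and mutant-labelled replicate 3 was the lowest of all. The log2 fold change was -1.11 (SE 0.46, adjusted p 0.282 by edgeR's quasi-likelihood F test). CHI, the chalcone isomerase gene of the same pathway, was at 25.8, 14.9 and 22.7 CPM and at 16.2, 13.4 and 3.91 CPM (log2 fold change -0.91, SE 0.39, adjusted p 0.304). ELIP2, an early light-induced protein gene, was named after its values were seen. It passed only without Col-0-labelled replicate 2, the lowest of its group, at a log2 fold change of -0.99 (adjusted p 0.0393, edgeR's quasi-likelihood F test). With all libraries its log2 fold change was -0.65, with an adjusted p of 0.383. The flavonoid gene F3H had 0 counts in all libraries, and another annotated gene on the opposite strand covers 94.5% of it, so its reads may not have been assigned. The summed level of the 10 genes was 564, 314 and 631 CPM in the Col-0-labelled libraries and 378, 370 and 128 CPM in the others. It was lowest in mutant-labelled replicate 3, the library with the lowest summed level of root hair markers. The part of tissue makeup in these values was not tested. Most of each sum came from CHS, another flavonoid gene, at 357, 214 and 386 CPM in the Col-0-labelled libraries and at 251, 241 and 72.5 CPM in the others. Its log2 fold change was -0.76 (SE 0.40, adjusted p 0.398 by edgeR's quasi-likelihood F test). LHCB1.3, ELIP1 and LHCB1.2 had log2 fold changes of 0.10, -0.17 and -0.22.

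**Figure D4:**
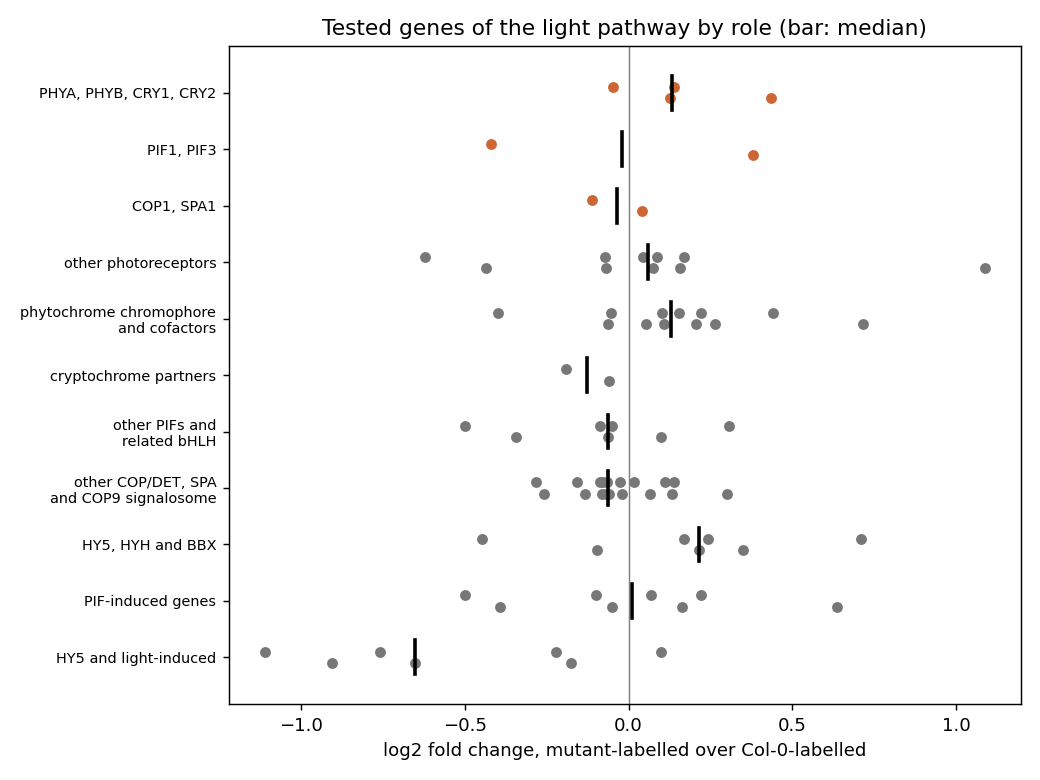
Log2 fold change, mutant-labelled over Col-0-labelled libraries (horizontal axis), of each tested gene of the light pathway, grouped by role. Orange points are the 8 tested genes of the 10, grey points are the 69 further genes (a gene in 2 lists is drawn in both), and black bars are medians. Medians lie between -0.13 and 0.21 except for the HY5 and light-induced genes at -0.65, and no gene drawn passed the test.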

How the data were processed

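Raw read counts per gene, 1 column per library, are the values the authors deposited, with no normalisation. The submitters' processing notes name TopHat2, HTSeq, DESeq and DESeq2 and the build TAIR10, with no role or version. The annotation and the use of strand are not given in the sources used here. Columns were matched to samples by genotype and number. Locus identifiers were looked up in the RefSeq annotation of TAIR10.1, which held 31912 of 32678. It pairs no symbol with the mutated loci, whose identity is from general knowledge, as are the names PCH1, PCHL, BIC1, BIC2 and PIF8.

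The model was fitted with edgeR 4.0.16 in R 4.3.3: filterByExpr (minimum count 10, minimum total 15), TMM scaling, glmQLFit and glmQLFTest with genotype only, and Benjamini-Hochberg adjustment over 17720 tested genes, called at an adjusted p under 0.05. Standard errors are the absolute log2 fold change over the square root of F, and 95% intervals use the fitted degrees of freedom. Principal components used log2 CPM with a prior count of 2. All 6 were kept as separate samples, since the chi-square over its degrees of freedom was 4.21 to 16.2 between libraries of one label. Reads carry no molecular identifiers, so floors cover counting error only. The scripts were tested on simulated data.

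Alternatives were DESeq2 1.42.0, DESeq2 size factors, upper-quartile factors, no filter, at least 1 CPM in 3 libraries, the replicate number as a block, and each library left out. From each list the 2 genes of smallest p are named, or all that passed. HY5, CIB1, F3H, CHS, ELIP1, LHCB1.2, LHCB1.3, the expansin genes and those passing in an alternative alone were added after their values were seen. So were COBL9 and LRX1. Members and lists were chosen with earlier results of these data known, and no set test was made.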

Additional observations from a re-analysis of the deposited data

How the results depend on the processing

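Over all genes 489 were called, against 744 with the DESeq2 Wald test and 144 to 1164 across the fits that left out a library, lowest without Col-0-labelled replicate 1 and highest without mutant-labelled replicate 3. It was 276 and 155 without Col-0-labelled replicates 2 and 3 and 173 without mutant-labelled replicate 2. Of the 10 light-signalling genes 0 were called, against 1 (CRY2, log2 fold change 0.43) with DESeq2 and 0 to 1 across the fits without a library. Of the further pathway genes 0 were called, against 0 to 3 across those fits. There the log2 fold change was 0.32 to 0.55 for CRY2, 0.67 to 0.87 for COG1, -0.092 to 0.020 for PHYB, which turned to 0.020 without Col-0-labelled replicate 3, and -0.04 to 0.12 for SPA1. SPA1 turned to -0.0036 without Col-0-labelled replicate 2 and to -0.041 without mutant-labelled replicate 1. What causes these differences was not tested. PHYA, CRY1, PIF1, PIF3 and COP1 kept their sign and stayed uncalled in all 12 alternatives. Both other scalings and both other filters changed no call among the 10 genes.

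A fit with the replicate number as a block called 259 genes, and none of the 10. The numbers are not stated to mark shared plants, and same-numbered libraries did not deviate together (correlations of -0.0091, -0.060 and -0.11 across genes). Of the 6 libraries, 0 correlated best with their own number.

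Low counts, 0 to 10 per library, limit what can be said of PIF4 and PIF5.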
